A study of Mus musculus with 8 samples.

Results

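The 9 genes Miox, Dao, Hpd, Hgd, Fah, Agxt2, Hao2, Prodh2 and Gldc encode enzymes that break down inositol and amino acids in the kidney tubule. They were taken by name, by a rule with no threshold on measured values but with earlier results of these libraries known, and all 9 were found among the 49315 gene IDs of the deposited count table. Messenger RNA had been sequenced from 4 control kidneys and 4 kidneys with a conditional knockout of Kdm1a in mouse. Kdm1a encodes LSD1, a histone demethylase, and a conditional allele is lost only in cells that express a recombinase. The recombinase driver, the strain, the sex and the age of the animals are not given in the sources used here, and the controls are labelled by genotype as Control and described as wild type in the extraction protocol. The labels number the kidneys within each genotype without saying that each came from another animal, so the p values measure the spread between these samples.

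The proximal tubule reabsorbs most filtered amino acids and sugars, and its cells are rich in mitochondria and peroxisomes that oxidise part of this load. Myo-inositol is opened to glucuronate by Miox, an enzyme known as largely specific to the kidney. Tyrosine is degraded through Hpd, Hgd and Fah in turn. D-amino acids are oxidised in peroxisomes by Dao, hydroxyproline enters its breakdown through Prodh2, and Hao2 and Agxt2 act on 2-hydroxy acids and on amino groups that are passed to glyoxylate. Gldc is the decarboxylase of the mitochondrial glycine cleavage system.

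Library totals ranged from 19524945 to 28544511 counts, so that 1 count stood for between 0.0350 and 0.0512 CPM (counts per gene scaled to a common library total). Levels below are CPM after TMM scaling of the library totals, and fold changes are on the log2 scale, knockout over control, from the quasi-likelihood test of edgeR. A gene was called when its p value, adjusted by Benjamini-Hochberg over all 18485 genes tested, was under 0.05. Kdm1a itself stood at 113 ± 4.77 CPM in controls and 93.6 ± 1.88 CPM in knockouts (SD, n = 4 each), with all 4 knockouts below all 4 controls (exact two-sided permutation test, p = 0.0286, the smallest possible here). Its adjusted p was 0.0194. It lost the call when control replicate 1 or 3 or knockout replicate 1, 2 or 4 was omitted, with an adjusted p of at most 0.0765. The first principal component placed control replicate 2 at 9.56 and knockout replicate 3 at 9.71, between controls at −78.7 to −52.4 and knockouts at 48.3 to 68.4. In a chi-square comparison of counts by pairs of libraries, control replicate 2 was nearer to every knockout than to any other control. Its values per degree of freedom were 17.9 to 22.8 to the knockouts and 34.7 to 60.9 to the other controls. Y-linked transcripts were near 0 in control replicate 2 and in knockout replicates 1 and 4, and present in the other 5 libraries. Xist was the reverse, at 965, 1086 and 1047 CPM in the former and at 2.25 to 6.14 CPM in the latter. By these transcripts 1 control and 2 knockouts had a female pattern. The summed adrenal gland markers were highest in knockout replicate 1 (2548 CPM), followed by knockout replicate 4 (299.7 CPM) and control replicate 4 (140.9 CPM), and were at 12.9 to 17.8 CPM elsewhere. Germ cell markers summed to 46.0 CPM in control replicate 2, against 3.05 to 6.08 CPM elsewhere. All 10 proximal tubule markers were detected in every library. Most of the adrenal gland and liver markers were too, so detection alone does not check the kidney label.

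Of the 9 genes, 6 were called lower in the knockout: Miox, Hgd, Fah, Dao, Agxt2 and Hao2. None was called higher, and Prodh2, Gldc and Hpd were not called. Over all genes tested, 14.9% were called, 8.27% as lower and 6.61% as higher. For 7 of the 9 genes every knockout lay below every control, which held for 9.58% of all genes tested, while knockouts lay wholly above controls for 9.29%. The median log2 fold change of the 9 genes was −2.32, against 0.0044 over all genes tested. All 9 passed the filter on low counts, but Miox and Agxt2 did so only with the controls. The calls of Miox and Agxt2 are therefore given as a description. The tissue was sequenced in bulk, so fewer tubule cells and less RNA per cell cannot be told apart.

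**Figure D1:**
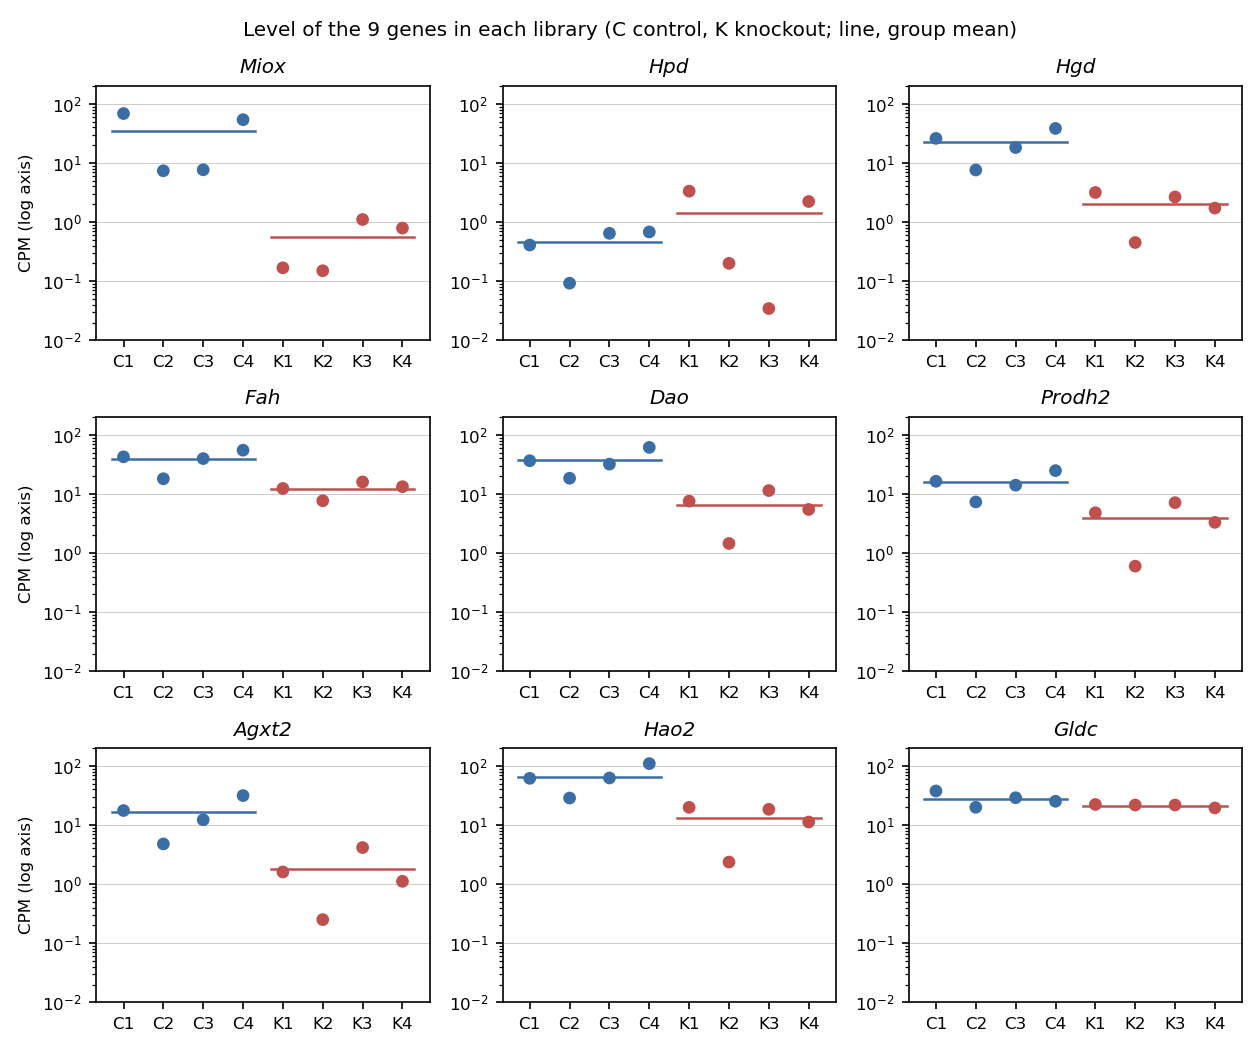
Level of each of the 9 genes in each library, in CPM on a log axis, with control libraries (C1 to C4) in blue, knockout libraries (K1 to K4) in red and lines at the group means. Knockouts lie below controls in 7 panels, Gldc stays between 19.4 and 37.5 CPM throughout, and Hpd is highest in K1 and K4.

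Sequence upstream of the genes is shown for the 4 with a match to HNF4 or nuclear receptor letters before the gene model. RefSeq windows (GRCm38.p6) of 300 bases, from 250 before to 50 after a start, were found for all 9 genes, 12 windows in all. The letters CAAAGTCCA, of an HNF4 type site, were searched on both strands and were present at Agxt2 alone, and in 0.475% of all 32851 windows. AGGTCA, the core of many nuclear receptor sites, was likewise searched on both strands and was present at 5 genes (Agxt2, Dao, Hgd, Miox and Prodh2) and in 16.3% of all windows. The motifs share no overlapping match in the lines below. A match is a description of the letters and not of binding. Each line below runs 5′ to 3′ and ends 1 base before the deposited gene model, with matches to either motif, on either strand, in capitals.
Miox, chr15:89334223-89334397, plus strand: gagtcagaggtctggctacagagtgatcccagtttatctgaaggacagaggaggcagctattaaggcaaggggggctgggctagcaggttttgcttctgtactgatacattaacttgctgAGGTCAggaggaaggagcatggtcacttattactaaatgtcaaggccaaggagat
Hgd, chr16:37579903-37580152, plus strand: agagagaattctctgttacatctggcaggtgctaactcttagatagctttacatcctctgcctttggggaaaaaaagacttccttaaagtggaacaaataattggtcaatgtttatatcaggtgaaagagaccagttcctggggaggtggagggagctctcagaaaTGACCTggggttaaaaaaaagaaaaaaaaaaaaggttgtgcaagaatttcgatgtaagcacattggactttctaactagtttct
Prodh2, chr7:30493408-30493621, plus strand: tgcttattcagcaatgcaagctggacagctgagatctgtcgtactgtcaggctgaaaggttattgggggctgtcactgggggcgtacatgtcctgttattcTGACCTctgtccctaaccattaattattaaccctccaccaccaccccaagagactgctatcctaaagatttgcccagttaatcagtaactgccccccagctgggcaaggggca
Agxt2, chr15:10358283-10358531, plus strand: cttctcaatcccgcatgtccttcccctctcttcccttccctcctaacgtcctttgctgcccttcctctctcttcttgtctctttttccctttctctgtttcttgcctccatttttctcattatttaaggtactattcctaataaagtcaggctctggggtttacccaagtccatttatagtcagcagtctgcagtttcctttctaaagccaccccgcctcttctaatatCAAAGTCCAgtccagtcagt
The AGGTCA match began 55 bases before the model in Miox, 84 in Hgd and 113 in Prodh2. The HNF4 type match of Agxt2 lay 20 bases before its model. No match to either motif was found in the windows of Gldc, Hpd, Fah or Hao2, which says only that these letters are not there.

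Miox (ENSMUSG00000022613, GRCm38 chromosome 15, 89334398 to 89337015, plus strand) showed the largest difference of the 9 genes. Control replicates 1 to 4 had 68.4, 7.37, 7.67 and 53.9 CPM, and knockout replicates 1 to 4 had 0.169, 0.151, 1.11 and 0.791 CPM. Controls thus fell into a high and a low pair that differed up to 9.27-fold, and yet the lowest control, replicate 2, was still 6.66 times the highest knockout, replicate 3. The knockout libraries rested on 4, 3, 32 and 22 counts, and Miox passed the filter on low counts only with the controls. Miox changed by −5.86 (SE 0.98, adjusted p 0.0134), and 5 of all genes tested had a lower fold change. Because of that filter, the call of Miox is given as a description. Its mean in the knockout was 1.62% of that in the controls.

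Around Miox, 10 other genes of inositol uptake, synthesis and breakdown were examined, and 7 were called lower and 1 higher. Of the enzymes that act on glucuronate downstream of Miox, Xylb, which phosphorylates xylulose, changed by −1.48 (adjusted p 0.0217). Cryl1, which oxidises gulonate, changed by −1.37 (adjusted p 0.0195). Akr1a1, the abundant reductase that makes gulonate, went from 659 ± 97.1 CPM to 75.7% of that level, a change of −0.40 (adjusted p 0.0373). The sodium-coupled inositol transporter Slc5a11 changed by −3.20 (adjusted p 0.0262). With 0.0845 to 0.796 CPM in the knockouts, it passed the filter on low counts only with the controls. Isyna1, which makes inositol anew from glucose 6-phosphate, had 138 to 173 CPM in controls and 134 to 149 CPM in knockouts and was not called (−0.18, adjusted p 0.129). The proton-coupled inositol transporter gene Slc2a13, named after its value was seen as the list's only rise, changed by 0.63 (adjusted p 0.0269) and kept its call in 3 of 8 fits with a library omitted, those without control replicate 2, control replicate 4 or knockout replicate 3.

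In tyrosine breakdown Hgd and Fah were called lower, and Hpd, which acts before them and was scarce, was not called. The difference between Hpd and the other genes was not tested. Hgd (ENSMUSG00000022821, chromosome 16, 37580153 to 37632020, plus strand), the oxygenase that opens homogentisate, had 26.1, 7.60, 18.2 and 38.4 CPM in the controls and 3.17, 0.452, 2.66 and 1.73 CPM in the knockouts. The groups did not overlap, with control replicate 2 lowest among controls and knockout replicate 2 lowest of all. Hgd changed by −3.47 (SE 0.60, adjusted p 0.0143). Fah (ENSMUSG00000030630, chromosome 7, 84585159 to 84606722, minus strand), the hydrolase of the last step, had 42.4, 18.1, 39.6 and 55.0 CPM in the controls and 12.4, 7.68, 16.0 and 13.3 CPM in the knockouts. Here the groups were closer, since control replicate 2 was 1.13 times knockout replicate 3. Fah changed by −1.65 (SE 0.33, adjusted p 0.0194) and kept 31.8% of its control level.

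Hpd (ENSMUSG00000029445, chromosome 5, 123171807 to 123182727, minus strand), the dioxygenase that forms homogentisate, was scarce. Controls had 0.410, 0.0927, 0.646 and 0.682 CPM, from 2 to 16 counts, and knockouts had 3.34, 0.201, 0.0346 and 2.23 CPM. Knockout replicates 1 and 4 were above every other library and knockout replicate 3, with 1 count, was below every other. Hpd was not called (1.65, SE 1.03, adjusted p 0.275), and in the fit with adrenal transcripts as a covariate its value was −0.69 (adjusted p 0.586). Among the 5 libraries with Y-linked transcripts, Hpd averaged 0.579 CPM in 3 controls and 0.118 CPM in 2 knockouts (−2.39, adjusted p 0.0666).

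The libraries with high Hpd were those with high levels of most, though not all, of the liver genes listed. Albumin (Alb) was at 89.3 and 82.5 CPM in knockout replicates 1 and 4 and at 1.71 to 7.09 CPM in the other 6 libraries. The fibrinogen gene Fgb was at 37.5 and 18.5 CPM in those knockouts and at 0.151 to 4.60 CPM elsewhere. Tat, the aminotransferase just before Hpd in tyrosine breakdown, was at 3.46 and 2.84 CPM there and at 0.0346 to 0.404 CPM elsewhere. Of the 9 liver markers listed, 7 had knockout replicates 1 and 4 as their highest libraries, and none was at 0 in either of them. The exceptions were Ttr and Hao1. Ttr went the other way, with 10.2 to 81.4 CPM in controls and 0.602 to 4.84 CPM in knockouts, and was called lower (−3.76, adjusted p 0.0168). Hao1 was at most 0.325 CPM in any library. The summed level of the 9 ranged from 23.8 to 98.7 CPM in controls, where Ttr was the highest of them in every library, and from 13.3 to 167 CPM in knockouts. The same knockouts carried the most adrenal transcripts and lacked Y-linked ones, so these features cannot be told apart among the knockouts, and the part of liver transcripts in the Hpd level was not tested.

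**Figure D2:**
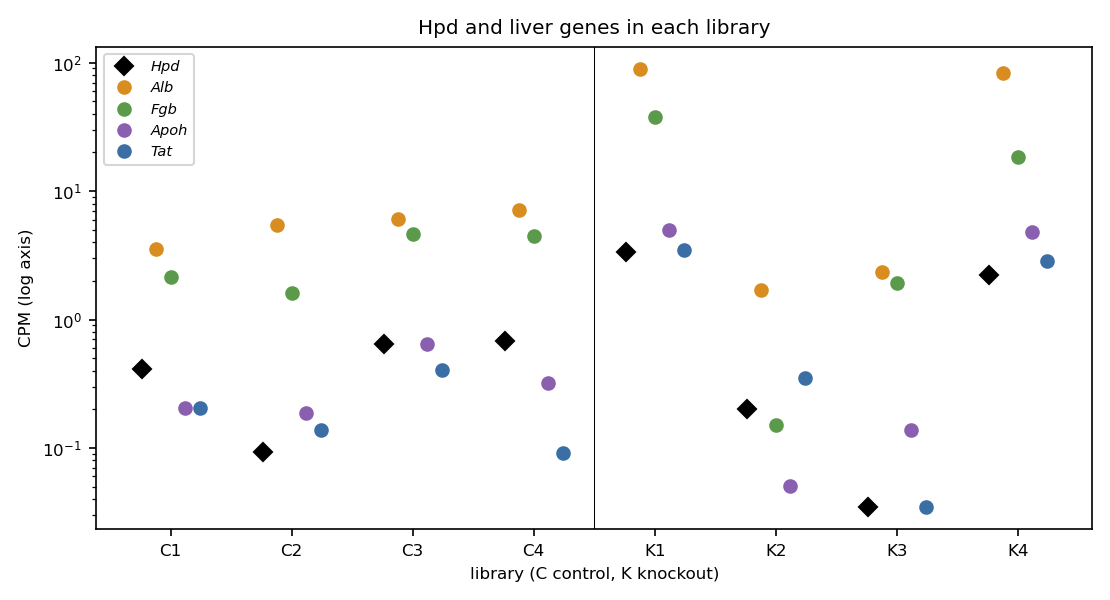
Levels of Hpd (black diamonds) and of the liver genes Alb, Fgb, Apoh and Tat (coloured circles) in each library, in CPM on a log axis, with points set apart sideways for legibility. In K1 and K4 all 5 genes are above their level in every other library, for example Alb at 89.3 and 82.5 CPM. The liver gene Ttr, which was lower in the knockouts, is not drawn.

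Beside Hpd, Hgd and Fah, 3 of the 4 other genes listed in this pathway were tested, and all 3 were called lower. Gstz1, the isomerase between Hgd and Fah, changed by −0.64 (adjusted p 0.0192). Pcbd1 and Qdpr recycle the cofactor tetrahydrobiopterin. They changed by −0.92 and −0.59 (adjusted p 0.0281 and 0.0319). Tat was not tested because its counts were too low.

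Dao (ENSMUSG00000042096, chromosome 5, 114003703 to 114025682, plus strand), the peroxisomal oxidase of neutral D-amino acids, had 36.5, 18.5, 32.0 and 61.2 CPM in the controls. The knockouts had 7.56, 1.46, 11.4 and 5.47 CPM, all below the controls, with replicate 2 lowest. Dao changed by −2.50 (SE 0.54, adjusted p 0.0231). Ddo, the companion oxidase of acidic D-amino acids, moved the other way. It had 1.60, 2.97, 2.83 and 2.45 CPM in the controls and 7.64, 8.23, 7.51 and 9.10 CPM in the knockouts. The knockout libraries lay well above the controls and differed among themselves at most 1.21-fold, and Ddo changed by 1.72 (adjusted p 0.00618), a call kept in all 19 alternative fits. Of the enzymes that oxidise N-methyl amino acids or pipecolate, Dmgdh (−3.03, adjusted p 0.0200), Pipox (−1.66, adjusted p 0.0220) and Sardh (−0.83, adjusted p 0.0263) were called lower. Dmgdh, with 0.201 CPM in knockout replicate 2, passed the filter on low counts only with the controls. Srr, the racemase that makes D-serine, was not called (−0.22, adjusted p 0.206).

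Of the 3 enzymes around hydroxyproline and glyoxylate, Hao2 and Agxt2 were called lower and Prodh2 narrowly missed the threshold. Hao2 (ENSMUSG00000027870, chromosome 3, 98874521 to 98893239, minus strand), a peroxisomal 2-hydroxy acid oxidase, had 61.4, 28.6, 62.3 and 109 CPM in the controls and 19.9, 2.36, 18.4 and 11.2 CPM in the knockouts. Knockout replicate 2 stood well below the other knockouts, and the groups did not overlap. Hao2 changed by −2.32 (SE 0.58, adjusted p 0.0322), and its adjusted p was 0.0641 once Y-linked transcripts entered as a covariate.

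Agxt2 (ENSMUSG00000089678, chromosome 15, 10358532 to 10410153, plus strand), a mitochondrial aminotransferase that uses glyoxylate as acceptor, had 17.5, 4.78, 12.2 and 31.4 CPM in the controls and 1.61, 0.251, 4.15 and 1.12 CPM in the knockouts. The lowest control and the highest knockout differed by 1.15-fold. Agxt2 changed by −3.18 (SE 0.75, adjusted p 0.0283). With 5 counts in knockout replicate 2, Agxt2 passed the filter on low counts only with the controls, so its call is given as a description. The predicted gene Gm21973 covers 4.90% of its exon bases on the same strand, so that a small share of reads is uncertain.

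Prodh2 (ENSMUSG00000036892, chromosome 7, 30493622 to 30513402, plus strand), the hydroxyproline dehydrogenase, had 16.4, 7.33, 14.1 and 24.8 CPM in the controls and 4.82, 0.602, 7.13 and 3.31 CPM in the knockouts. All knockouts were below all controls, though control replicate 2 exceeded knockout replicate 3 by only 1.03-fold. The change was −1.97 (SE 0.59) with an adjusted p of 0.0537, so Prodh2 was not called. It was called by DESeq2 (adjusted p 0.0274), by limma-voom with sample weights (0.00433) and without a filter on low counts (0.0419). It was also called with the replicate number as a block (0.0156), without control replicate 2 (0.0170), without knockout replicate 3 (0.0366) and without both (0.00610). The other 12 of 19 alternative fits did not call it, among them those with the Y-linked covariate (0.104), with the adrenal covariate (0.0755), without control replicate 4 (0.140) and without knockout replicate 4 (0.141).

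Of the 8 other genes in this list, 6 were tested and all were called lower. Aldh4a1, the dehydrogenase that follows Prodh2 in this pathway, changed by −1.30 (adjusted p 0.0181). Hoga1, the last enzyme of hydroxyproline breakdown, changed by −1.80 (adjusted p 0.0226), and Got2, the abundant mitochondrial aspartate aminotransferase, by −0.62 (adjusted p 0.0342). Ddah1, which degrades asymmetric dimethylarginine as Agxt2 also does, changed by −0.83 (adjusted p 0.0185). The paralogs Agxt and Hao1, which act chiefly in liver, were at most 0.318 and 0.325 CPM in any library and were not tested.

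Gldc (ENSMUSG00000024827, chromosome 19, 30098449 to 30175418, minus strand) was the most even of the 9 genes. It had 37.5, 19.9, 28.9 and 25.1 CPM in the controls and 22.2, 21.7, 21.8 and 19.4 CPM in the knockouts. Control replicate 2 lay inside the range of the knockouts, and the knockouts differed among themselves at most 1.15-fold. Gldc changed by −0.39 (SE 0.17, adjusted p 0.140) and was not called. Its value moved from −0.20 without control replicate 1 (adjusted p 0.350) to −0.52 without control replicate 2 (adjusted p 0.0155), and it was called in 3 of 19 alternative fits. Of its partners in the glycine cleavage system, Gcsh and Dld were called lower and Amt, the aminomethyltransferase, named to complete the system, was not (−0.39, adjusted p 0.0943). Gcsh, the lipoyl carrier protein, changed by −0.59 (adjusted p 0.0183) and the shared dehydrogenase Dld by −0.43 (adjusted p 0.0298). The serine hydroxymethyltransferases Shmt1 and Shmt2 changed by −0.67 and −0.55 (adjusted p 0.0230 and 0.0267), so 4 of 5 other genes in this list were called lower and none higher.

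In the breakdown of branched-chain amino acids, lysine, tryptophan and histidine, 15 of 16 listed genes were tested, 9 were called lower and 1 higher. Acmsd, a decarboxylase of the kynurenine pathway, had 12.9, 3.20, 4.40 and 16.5 CPM in the controls and 0.127, 0.151, 0.242 and 0.216 CPM in the knockouts. It changed by −5.58 (adjusted p 0.00589), close in size to Miox, and kept its call in all 19 alternative fits. Acmsd had 19 counts in the 4 knockouts together and passed the filter on low counts only through the controls. Its call is therefore given as a description. Aadat, an aminotransferase of lysine and kynurenine breakdown, changed by −3.85 (adjusted p 0.0188), and Ivd, of leucine breakdown, by −0.40 (adjusted p 0.0336). Hal, which deaminates histidine, had 8 counts in the 4 controls together and 113 in the 4 knockouts, with all knockouts above all controls. It passed the filter on low counts only through the knockouts, so its call is given as a description. The call was lost without control replicate 1, control replicate 3 or knockout replicate 4.

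Over the 6 lists, 32 of the 44 other pathway genes tested were called lower and 3 (Slc2a13, Ddo and Hal, the last of which was near 0 in controls) higher, with a median log2 fold change of −0.65. These lists were written with earlier results of the same libraries known, and many of their genes are known to be expressed in the proximal tubule. Leaving out a library changed the number called from 35 to between 2, without knockout replicate 4, and 40, without control replicate 2. Without control replicate 1, 3 or 4 the number was 6, 3 or 12, and without knockout replicate 1 or 2 it was 3 or 5. Over all genes, 153 were called without knockout replicate 4 and 7084 without control replicate 2, against 2751 with all 8 libraries.

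**Figure D3:**
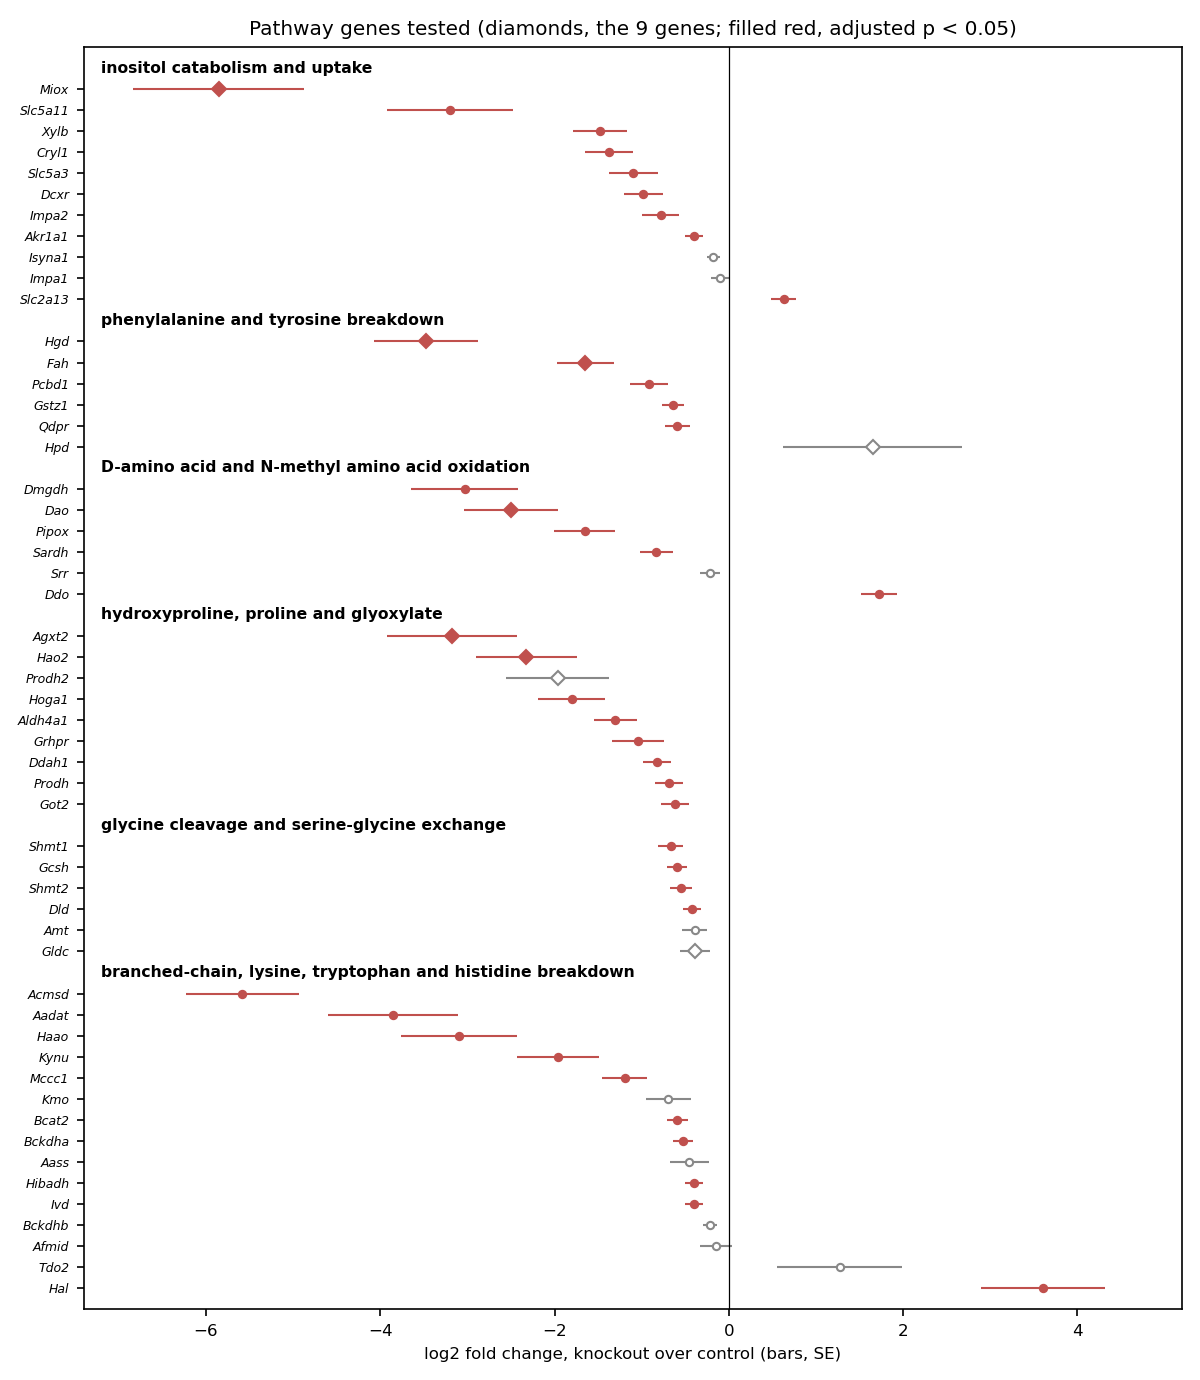
Log2 fold changes, knockout over control, of all tested genes in the 6 pathway lists, with bars of 1 SE. Diamonds mark the 9 genes and filled red symbols an adjusted p under 0.05, and Ddo, Hal and Slc2a13 are the filled symbols to the right of 0.

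The calls of the 9 genes depended on which libraries were kept, while the direction of the 8 lower genes did not. Without knockout replicate 4, 0 of the 9 were called by edgeR. The adjusted p of the 6 genes then ran from 0.0566 for Miox to 0.0987 for Hao2. In that fit 7 of the 9 had an unadjusted p under 0.05, a loose bar. With all 8 libraries, 6489 of 18485 genes tested were under it, and the share without knockout replicate 4 was not counted. Without control replicate 1, control replicate 3 or knockout replicate 1, Miox and Hgd alone were called. Fah, Dao, Agxt2 and Hao2 then had adjusted p values of 0.0565 to 0.0773, 0.0600 to 0.0812 and 0.0568 to 0.0776, respectively. Without control replicate 4, Dao, Agxt2 and Hao2 were not called (0.0616 to 0.0848), and without knockout replicate 2, Fah and Agxt2 were not (0.0523 and 0.0609). Without control replicate 2, 8 genes were called and without knockout replicate 3, 7 were. With both of these in-between libraries left out, 8 were called and Miox stood at −6.74. These libraries were named for lying nearest to the other genotype in the same data, so more calls without them are no independent check. The number called over all genes moved as well. It was 153 of about 18670 tested without knockout replicate 4 and 7084 of about 18950 without control replicate 2. Without knockout replicate 3 it was 3192, and without both in-between libraries 7903. In the remaining fits with 1 library left out it was 374 to 695, against 2751 of 18485 with all 8 libraries. Among the 5 libraries with Y-linked transcripts alone, 4 of the 9 genes were called, beside 3163 over all genes. Dao (−2.69, adjusted p 0.0554) and Agxt2 (−3.12, adjusted p 0.0596) then lost their calls. Libraries without Y-linked transcripts comprised only 1 control, too few for a fit of their own. In them Dao averaged 6.51 CPM in 2 knockouts against 18.5 CPM in the control.

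**Figure D4:**
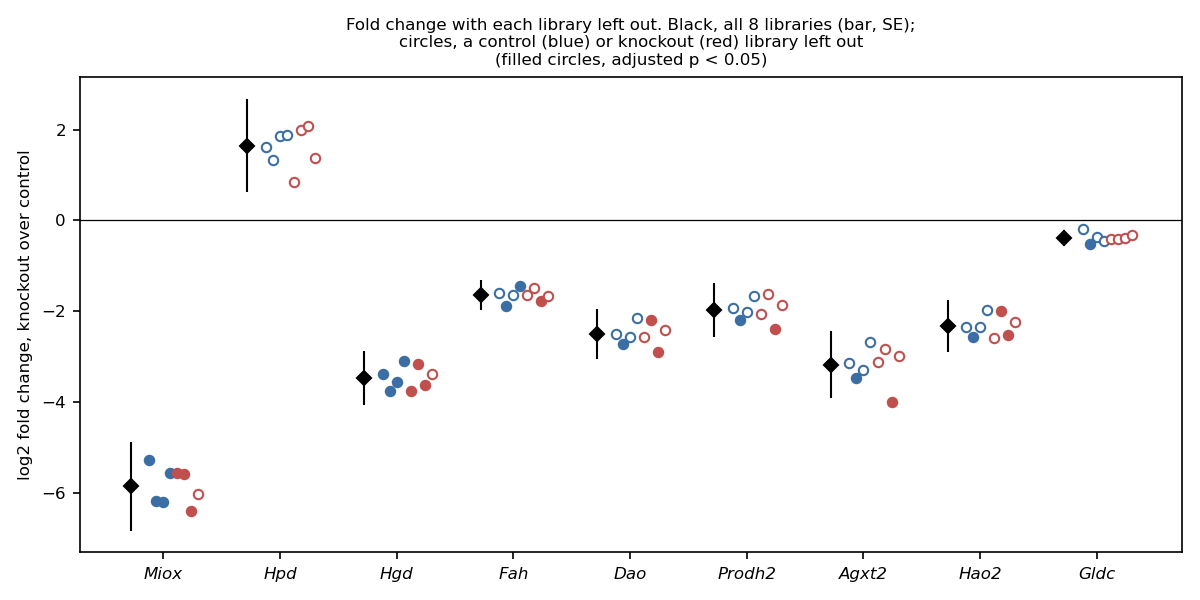
Log2 fold change of each of the 9 genes with all 8 libraries (black diamonds, bars of 1 SE) and with each library left out in turn (blue, a control; red, a knockout; filled where the adjusted p is under 0.05). Values for Miox stay between −6.39 and −5.28 in the latter fits, and the rightmost red circle of each gene, without knockout replicate 4, is open throughout.

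Within each genotype the genes shared an order of libraries only in part. Control replicate 2 was the lowest control for all 9 genes, and control replicate 4 the highest for 7. Knockout replicate 2 was the lowest knockout for 7 of the 9, and knockout replicate 3 the highest for 5. Knockout replicate 1 was the highest knockout for Hgd, Hao2, Hpd and Gldc. The summed proximal tubule markers had the same lowest and highest library in each genotype. The 10 markers summed to 1011, 367, 821 and 1476 CPM in control replicates 1 to 4 and to 123, 69.7, 309 and 144 CPM in the knockouts. All 10 markers were called lower, with a median log2 fold change of −2.92. Markers of the thick ascending limb, a later segment of the tubule, were lower as well: 3 of 5 (Umod, Kcnj1 and Cldn16) were called lower and none higher, with a median of −2.44 and sums of 202 to 987 CPM in controls and 10.2 to 276 CPM in knockouts. The part of either segment's markers in the levels of the 9 genes was not tested.

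Levels were therefore also expressed per kilobase of exon, as a percentage of the summed level per kilobase of these 10 proximal tubule markers in the same library. Aqp1 (mean 94.9 CPM per kilobase in controls) and Slc34a1 (71.6) weighed most in that sum. Dao stood at 5.83% ± 1.17 in controls and 5.54% ± 2.77 in knockouts (SD, n = 4 each), and Hao2 at 14.5% ± 2.04 and 17.1% ± 12.6. Prodh2 was at 2.94% ± 0.428 and 3.99% ± 2.38. These 3 genes thus showed overlapping ratios in the 2 genotypes. Ratios also overlapped for Hgd (3.38% to 4.06% in controls, 0.905% to 4.38% in knockouts) and Agxt2 (1.81% to 2.75% and 0.415% to 1.83%). The same held for the scarce Hpd (0.0522% to 0.147% and 0.0205% to 5.66%). Miox did not: it was at 2.25% to 16.3% in controls and at 0.370% to 1.41% in knockouts. Gldc was at 1.86% to 6.35% in controls and at 7.30% to 30.3% in knockouts, and so was higher in knockouts on this scale. Its own mean was 27.9 CPM in controls and 21.3 CPM in knockouts. The summed markers were at 83.5 to 361 CPM per kilobase in controls and at 19.1 to 79.4 in knockouts. The lower denominator alone thus raises the ratio of a gene that changed little. Whether Gldc is expressed in the same cells as the markers was not tested. Fah was at 6.86% to 9.77% in controls and at 9.06% to 20.2% in knockouts, with overlap. No test was made of these ratios. Groups stayed apart for Miox and Gldc also with Lrp2 alone, or the geometric mean of the 10 markers, as denominator, and with either of these Fah was apart as well.

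**Figure D5:**
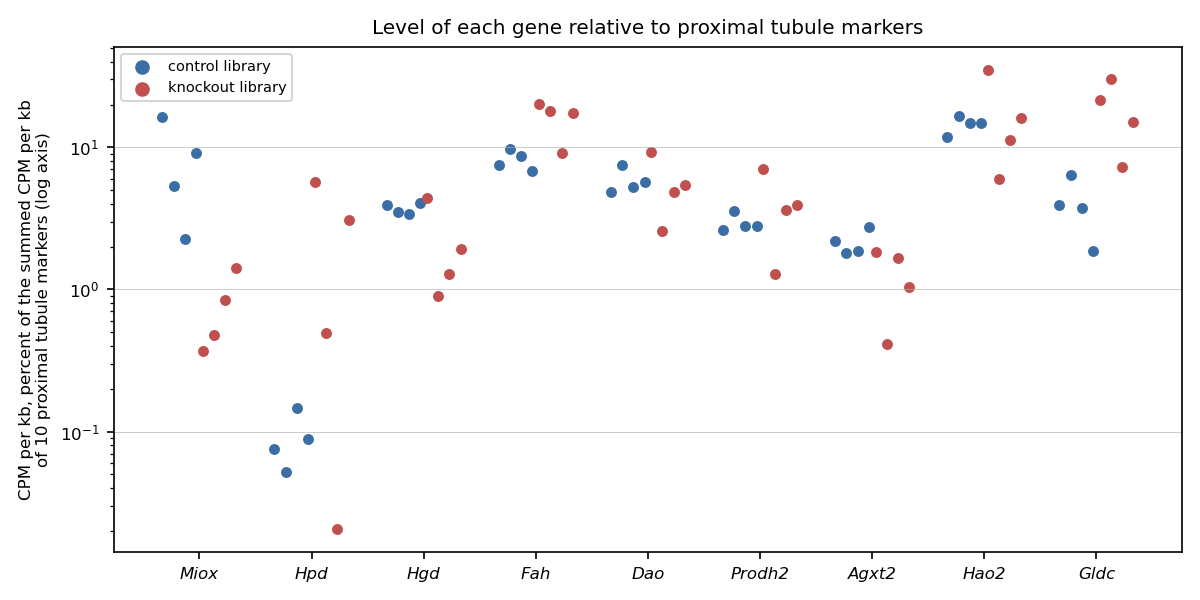
Level per kilobase of each of the 9 genes as a percentage of the summed level per kilobase of 10 proximal tubule markers, on a log axis, with 1 point per library (controls blue, knockouts red, replicates 1 to 4 from left to right). Knockout points of Miox lie below all control points and those of Gldc above, while the genotypes overlap for every other gene.

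Per kilobase, the order of levels in controls was Hao2 (31.9 CPM per kilobase), Miox (20.8), Fah (17.5), Dao (12.5), Hgd (8.63), Gldc (7.42), Prodh2 (6.37), Agxt2 (5.21) and Hpd (0.215). Neighbours in this order overlapped in range, except that every control had more Agxt2 than any control had Hpd. In knockouts Hao2 (6.32), Gldc (5.67) and Fah (5.55) had the highest means and Miox (0.336) the lowest, but all neighbours overlapped. Miox was below Agxt2 in knockout replicates 1 and 3 and above it in replicates 2 and 4, so the last places have no fixed order.

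By a rule that set protein-coding genes averaging 1 CPM or more, numbered predicted genes left out, beside the median profile of the 9 genes over the 8 libraries, the nearest of 14003 candidates was Aspa, the aminoacylase of N-acetylaspartate. Its root mean square difference from the profile was 0.18 on the log2 scale. Next came Vil1, the brush border protein villin (0.23), Amn, the membrane partner of cubilin (0.24), the zinc transporter gene Slc39a5 (0.24) and Hnf4a, a nuclear receptor of the proximal tubule (0.28). Of the 9 genes themselves, Dao (0.14) and Hao2 (0.17) were nearest to the profile and Hpd (2.22) and Miox (1.76) farthest.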

How the data were processed

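The deposited values are raw counts of reads per gene, not normalized, beside exon coordinates and gene length (per the file headers). The submitters' processing notes name Trimmomatic 0.36, STAR 2.5.2b, featureCounts, Subread 1.5.2, DESeq2 and GRCm38, with no role or order, and the strand setting is not given in the sources used here, so reads of antisense neighbours cannot be told apart. Per the labels' protocols, polyadenylated RNA of frozen kidney was captured with oligo-dT beads. Symbols came from GENCODE M21. The series-wide table differed from the tables per library in 0 cells, and 0 entries named no gene.

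Counts were scaled by TMM, filtered with filterByExpr and compared between 4 controls and 4 knockouts in edgeR 4.0.16 (R 4.3.3) without covariates. A standard error is the absolute fold change divided by the root of F. Log2 CPM used a prior count of 2. The fit was tested on simulated data. A chi-square test of each of the 28 pairs of libraries gave at least 11.8 per degree of freedom, so no library was present more than once. Alternatives were other normalizations and filters, DESeq2 1.42.0, limma-voom (limma 3.58.1), a replicate block, covariates and left-out libraries. The fit on the 5 libraries with Y-linked transcripts, and the other denominators for marker ratios, were chosen after seeing the data. The 9 genes, the lists and the motifs were chosen with earlier results of these data known. Genes named beside the 9 are, per list, at most 3 of the called genes with the smallest adjusted p and the 2 most abundant, and the 5 genes nearest in profile. Outside that rule, Slc2a13, Amt, Tat, Agxt, Hao1 and Xist were named after their values were seen. Precision is limited by counting at low levels and by the number of libraries. Some listed genes and a listed motif are not reported here.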

Additional observations from a re-analysis of the deposited data

Results flagged for a closer look

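Of 56 groups of 4 libraries examined, 6 had a library far from the other 3 by Dixon's criterion (a gap of more than 0.829 of the range), which chance gives in about 1 of 20 groups. Knockout replicate 4 had 19.4 CPM of Gldc, against 21.7 to 22.2 CPM in the other knockouts, a narrow spread in absolute terms. Adrenal gland markers summed to 140.9 CPM in control replicate 4 and to 2548 CPM in knockout replicate 1. Germ cell markers summed to 46.0 CPM in control replicate 2. Thick ascending limb markers summed to 276 CPM in knockout replicate 3, against 10.2 to 48.4 CPM in the other knockouts. Y-linked markers summed to 1.86 CPM in control replicate 2. The part of these libraries' features in the levels of the 9 genes was not tested.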

How the results depend on the processing

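Over 170 alternative fits of the 9 genes, 132 kept direction and side of the threshold, 26 lost a call, 10 gained one and 2 changed sign. Both changes of sign were of Hpd, which was never called: −0.69 with the adrenal covariate and −2.39 in the libraries with Y-linked transcripts. The cause was not tested. Hpd was not tested at a mean of 1 CPM. The number of the 9 called lower ran from 0 to 8 when a library was left out and from 4 to 8 otherwise. Other pathway genes called numbered 2 to 40 with a library left out. Over all genes, 2751 were called, against 4468 with DESeq2, 8302 with limma-voom, 1476 with the adrenal covariate, 7903 without both in-between libraries and 153 to 7084 with a library left out. Kdm1a ran from −0.29 to −0.24 in the latter fits, and was −0.28 and not called (adjusted p 0.0562) in the libraries with Y-linked transcripts. With the replicate number as a block, 7 of the 9 genes were called (Prodh2 added), 35 other pathway genes and 3229 genes in all, and Miox stood at −5.49. Same-numbered libraries deviated from their group means with correlations of −0.11, 0.33, 0.23 and −0.06, and not every library correlated best with its own number, so the samples share only a number. In windows of 250 bases before the start, 0.384% and 14.0% of promoters held the HNF4 and nuclear receptor letters. With the geometric mean as denominator, the log2 ratio to markers moved upward by the same amount for all 9 genes, as the change of denominator fixes: from −1.06 to −0.35 for Hgd, from 0.93 to 1.64 for Fah, and across 0 for Dao (−0.20 to 0.51) and Hao2 (−0.04 to 0.67). Genes under about 1 CPM, such as Hpd, are limited by counting.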

Other observations

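Regulators of proximal tubule genes were measured in the same libraries. Hnf4a had 63.6 to 163 CPM in controls and 3.31 to 35.2 CPM in knockouts, with no overlap (log2 fold change −2.26, edgeR adjusted p 0.0336). Ppara changed by −1.49 (adjusted p 0.0473), and Maf (−0.28, adjusted p 0.325) was not called. Of these 3 regulators, 2 were thus called lower and none higher.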
